A study of Rattus norvegicus with 36 samples.

Results

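The genes described here are 9 genes of the transforming growth factor β (TGF-β) and bone morphogenetic protein (BMP) pathways, of 24275 genes in the count tables. They are the ligand genes *Tgfb1*, *Tgfb2*, *Tgfb3* and *Bmp4*, the receptor genes *Tgfbr1* and *Tgfbr2*, the inhibitory SMAD gene *Smad7* and the BMP target genes *Id1* and *Id3*. They were taken by their symbols, each of which matched 1 gene. RNA was measured in H9C2, a rat cardiac myoblast line, transfected with 25 nmol/L of a mimic control (MC), of a miR-125b mimic or of the mimic of an isomiR, which is a variant of a microRNA with another 3′ or 5′ end. The isomiRs lacked 3 (Trim AGU), 2 (Trim AG) or 1 (Trim A) of the last bases or carried 1 more (Plus A), and the cells were then held for a day in hypoxia or normoxia. Counts of 33 of the 36 libraries were used, 3 for each of 11 groups, namely Hypoxia MC and both oxygen states of miR-125b and of the 4 isomiRs. All of the cells carried a transfected mimic. Per the study's methods, the hypoxic cells were in serum-free, low-glucose medium and the normoxic cells in fresh ordinary medium, so oxygen cannot be told apart from serum and glucose wherever hypoxia is set against normoxia. H9C2 is a single immortal line, and with bulk RNA fewer cells of a type and less RNA per cell cannot be told apart.

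TGF-β1, TGF-β2 and TGF-β3 are secreted in a latent form and, once released, bind the type II receptor TGFBR2, which then phosphorylates the type I receptor TGFBR1. The activated receptor phosphorylates SMAD proteins that enter the nucleus and switch on target genes, among them SMAD7, which binds the receptor and shuts the signal off. BMP4 works through related receptors and another set of SMADs, whose best-known direct targets are the *Id* genes, encoding inhibitors of DNA binding that hold back differentiation. In the heart the TGF-β pathway is best known for turning fibroblasts into matrix-producing cells after injury, and BMP signals for shaping the early heart.

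The mimics are shown because the groups differ in them, with the seed (bases 2 to 8, which pair with target messengers) in capitals. The sequence of miR-125b is that of the rat miR-125b-5p in RefSeq (GRCr8, chr11:29732588-29732609, plus strand). The others were derived from it by the 3′ change that the study describes for each.
miR-125b: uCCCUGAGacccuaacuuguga
Plus A: uCCCUGAGacccuaacuugugaa
Trim A: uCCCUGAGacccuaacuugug
Trim AG: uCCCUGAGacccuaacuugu
Trim AGU: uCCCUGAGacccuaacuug
The seed is the same in all 5, which are 22, 23, 21, 20 and 19 bases long in this order.

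The libraries held 28361216 to 42672584 counts (median 29923694), and the 9 genes had 200 to 22533 counts in a library. The 3 libraries of Hypoxia Trim AG were the deepest, with 39940087 to 42672584 counts, and all others held at most 34505938. The labels do not say that replicates were separate cultures, and p-values then measure the spread between these samples, which may be technical. Markers of a myoblast were present (*Vim* 1365 to 2910 FPKM, *Cdh15* 69.1 to 224 FPKM, *Myod1* 8.78 to 76.9 FPKM), where FPKM is the authors' count scaled by gene length and library. *Myf5* was at 0 to 0.0343 FPKM and *Des* at most at 2.29 FPKM, and the leukocyte marker *Ptprc* and the endothelial marker *Vwf* did not exceed 0.0365 and 0.0352 FPKM. Of the leukocyte markers all 5 were found and summed to at most 2.16 FPKM, and of the endothelial markers 2 of 5, summing to at most 0.919 FPKM. All 8 myoblast markers summed to 1563 to 3089 FPKM in hypoxia and 1671 to 1944 FPKM in normoxia, most of it *Vim*. The muscle differentiation markers *Myog*, *Tnnt2* and *Actc1* had lower means in hypoxia with miR-125b and Trim AG than with MC, which was not tested. Means by mimic of the other myoblast markers, and of these with the other isomiRs, are not given here. *Myog* had a mean of 352 CPM (counts scaled to a common library total) in Hypoxia MC, 63.9 CPM with miR-125b and 11.3 CPM with Trim AG, *Tnnt2* had 307, 42.0 and 15.7 CPM, and *Actc1* had 33.3, 1.45 and 0.360 CPM. The fibroblast markers, all 5 found, summed to 1010 to 4545 FPKM in hypoxia and 2876 to 4966 FPKM in normoxia, with *Pdgfra* at or below 0.134 FPKM. The smooth muscle markers, 4 of 5 found, summed to 3871 to 13679 FPKM and 8272 to 11256 FPKM. *Acta2*, *Tagln*, *Col1a1* and *Dcn* stand both among these markers and among the pathway's target or regulator genes, and the part of cell type in the results was not tested.

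Some libraries stood apart from their group. Replicate 2 of Hypoxia Trim AGU had a TMM normalization factor of 0.898 against 0.953 to 1.06 elsewhere, and it held the lowest CPM of all 33 libraries for 4 of the 9 genes, *Tgfb2*, *Tgfbr1*, *Tgfbr2* and *Smad7*. Replicate 1 of Normoxia miR-125b had 683 CPM of *Tgfb2* where replicates 2 and 3 had 565 and 561. Replicate 1 of Normoxia Plus A had 535 CPM where replicates 2 and 3 had 689 and 749. In *Tgfb3* the same pattern stood, with 458, 340 and 370 CPM in Normoxia miR-125b and 343, 468 and 524 CPM in Normoxia Plus A. In *Tgfb3*, replicate 1 of each group lay among the libraries of the other group. In *Tgfb2*, replicate 1 of Normoxia miR-125b lay among those of Normoxia Plus A, and replicate 1 of Normoxia Plus A lay below all 3 of Normoxia miR-125b. For the calls of *Tgfb2* and *Tgfb3* and those with Trim AGU, values without these libraries are given beside the results. Replicate 2 of Hypoxia Trim AGU was singled out in part by its values of *Tgfb2*, *Tgfbr1*, *Tgfbr2* and *Smad7*. The adjusted p of these 4 genes without it is therefore no independent test. Hypoxia Trim A and Trim AG were spread as well. Over all genes, replicate 1 of Hypoxia Trim A differed from replicates 2 and 3 by a chi-square per gene of 73.8 and 57.4, against 7.75 between those. It had 126 CPM of *Tgfb1*, beside 83.2 and 89.9 CPM. In Hypoxia Trim AG the chi-square was 96.0 between replicates 1 and 2, and 34.0 and 28.0 between the other pairs.

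**Figure D1:**
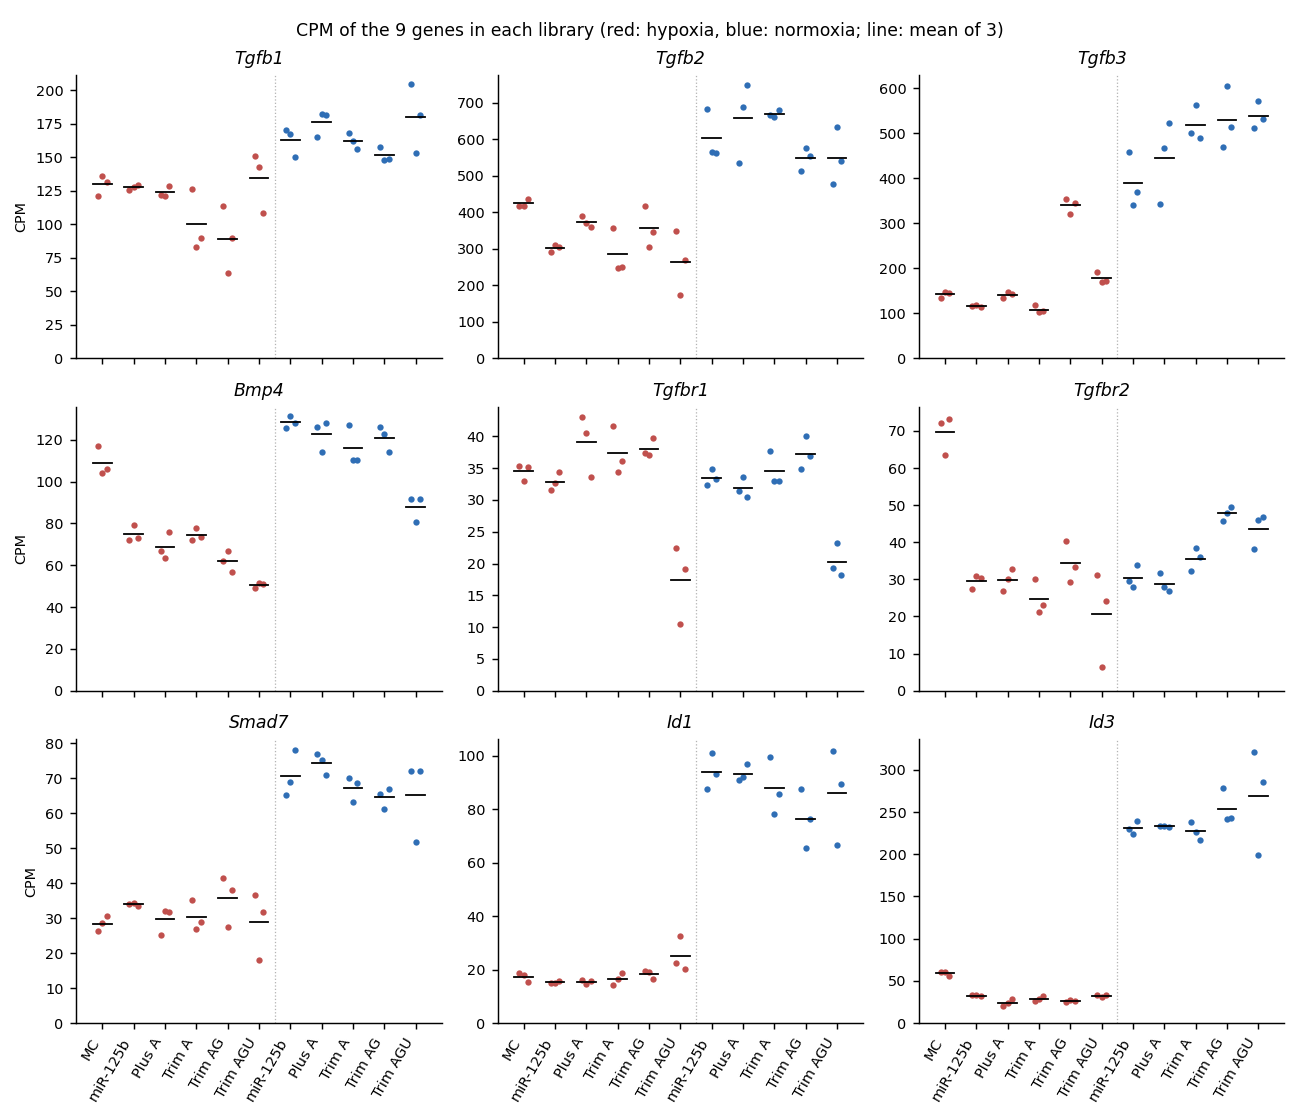
CPM (counts scaled to a common library total) of each of the 9 genes in each library, with the 6 hypoxia groups in red and the 5 normoxia groups in blue. Each point is 1 library and each black line the mean of 3. *Id3*, *Id1*, *Smad7* and *Tgfb2* separate the hypoxia from the normoxia libraries shown, and the share of all genes that do so was not computed. Of the groups shown, *Tgfbr2* is highest in Hypoxia MC, and *Tgfbr1* is lowest in Trim AGU in both oxygen states. Normoxia MC has no counts per library and is not shown.

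The comparison of hypoxia with normoxia within each mimic asked how oxygen and medium moved the pathway. Most of the 9 genes were lower in hypoxia, and none was called higher. Calls required at least a 1.5-fold difference and, in the quasi-likelihood test of edgeR, a p-value under 0.05 after Benjamini-Hochberg adjustment over all genes. With miR-125b 6 of 9 were called lower, beside 20.7% of all genes called in either direction and 11.4% called lower. With Plus A 7 were called lower (22.6% of all genes called, 12.6% lower), with Trim A 8 (26.5% called, 14.5% lower), with Trim AG 7 (32.8% called, 17.7% lower) and with Trim AGU 6 (26.8% called, 13.3% lower). The median log2 fold change of the 9 genes was −1.08 (Trim AGU), −0.76 (Trim AG), −1.23 (Trim A), −0.94 (Plus A) and −1.08 (miR-125b), while that of all genes lay between 0.00 and 0.02 in these comparisons. The libraries of hypoxia and normoxia did not overlap for 7 of 9 genes with miR-125b (61.5% of all genes), 8 with Trim AGU (52.3%), 8 with Trim AG (63.2%), 8 with Trim A (58.8%) and 8 with Plus A (60.8%). Each mimic's comparison used its own libraries, and the groups differ in medium as well as oxygen.

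*Id3* had the largest differences. With miR-125b it had 32.8, 32.9 and 32.0 CPM in the hypoxia libraries and 230, 225 and 240 CPM in the normoxia libraries. With Plus A the values were 20.7, 24.2 and 28.0 CPM against 233, 234 and 232 CPM. The 18 hypoxia libraries, MC included, ranged from 20.7 to 60.1 CPM and the 15 normoxia libraries from 199 to 321 CPM, so the oxygen states did not overlap. The share of all genes without overlap over these 33 libraries was not computed, and Normoxia MC is not among them. *Id3* fell 7.53-fold with miR-125b (log2 fold change −2.91, SE 0.05, adjusted p = 6.96e-13), 10.4-fold with Plus A (−3.37, SE 0.09), 8.26-fold with Trim A (−3.05, SE 0.10), 9.59-fold with Trim AG (−3.26, SE 0.10) and 8.07-fold with Trim AGU (−3.01, SE 0.20, adjusted p = 0.000223). Without replicate 2 of Hypoxia Trim AGU the last value was −3.05.

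*Id1* fell in the same 5 comparisons. With miR-125b it had 15.2, 14.9 and 15.7 CPM in hypoxia and 87.5, 101 and 93.4 CPM in normoxia. Over all libraries the hypoxia values were 14.2 to 32.7 CPM and the normoxia values 65.6 to 102 CPM, again without overlap. The fall was 6.52-fold with miR-125b (log2 −2.70, SE 0.07, adjusted p = 4.37e-11), 6.55-fold with Plus A, 5.61-fold with Trim A, 4.16-fold with Trim AG and 3.28-fold with Trim AGU (log2 −1.71, SE 0.27, adjusted p = 0.00428). In Hypoxia Trim AGU the libraries had 22.6, 32.7 and 20.3 CPM, and without replicate 2 the log2 fold change was −2.03.

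*Smad7*, the feedback inhibitor of the receptor, was also separated by oxygen in every library. It had 33.9, 34.3 and 33.5 CPM in Hypoxia miR-125b and 65.2, 68.8 and 78.1 CPM in Normoxia miR-125b, and 18.0 to 41.6 CPM over all hypoxia libraries against 51.7 to 78.1 CPM in normoxia. The fall was 2.21-fold with miR-125b (log2 −1.14, SE 0.07, adjusted p = 3.86e-08), 2.70-fold with Plus A, 2.34-fold with Trim A, 1.80-fold with Trim AG and 2.24-fold with Trim AGU (adjusted p = 0.0122). Without replicate 2 of Hypoxia Trim AGU the Trim AGU value was −0.96 on the log2 scale. The call was lost without replicate 3 of Normoxia Trim AGU (log2 −1.10, adjusted p = 0.0543).

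Among the ligands, *Tgfb3* fell most with each mimic but Trim AG, with which *Bmp4*, at 1.94-fold, fell most. It had 116, 118 and 114 CPM in Hypoxia miR-125b and 458, 340 and 370 CPM in Normoxia miR-125b. With Trim A it had 117, 104 and 104 CPM in hypoxia and 500, 563 and 490 CPM in normoxia. With Trim AG the hypoxia libraries stood much higher, at 353, 321 and 346 CPM, beside 469, 605 and 515 CPM in normoxia. The fall was 3.55-fold with miR-125b (log2 −1.83, SE 0.11, adjusted p = 1.82e-05), 3.40-fold with Plus A, 5.04-fold with Trim A, 1.55-fold with Trim AG (log2 −0.63, SE 0.10, adjusted p = 0.000505) and 2.95-fold with Trim AGU. The log2 value was −1.69 with miR-125b without replicate 1 of Normoxia miR-125b, −1.94 with Plus A (−1.76 with all libraries) without replicate 1 of Normoxia Plus A, and −1.60 with Trim AGU (−1.56 with all) without replicate 2 of Hypoxia Trim AGU. The Trim AG value was −0.53, under 1.5-fold, without replicate 2 of Normoxia Trim AG.

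*Tgfb2* did not overlap between oxygen states either, with 174 to 436 CPM in hypoxia and 477 to 749 CPM in normoxia. It had 292, 310 and 305 CPM in Hypoxia miR-125b and 357, 246 and 251 CPM in Hypoxia Trim A, beside 666, 660 and 679 CPM in Normoxia Trim A. The fall was 2.12-fold with miR-125b (log2 −1.08, SE 0.08, adjusted p = 1.45e-06), 1.91-fold with Plus A, 2.48-fold with Trim A, 1.53-fold with Trim AG (log2 −0.61, SE 0.11) and 2.05-fold with Trim AGU (log2 −1.04, SE 0.22, adjusted p = 0.0135). The log2 value was −0.98 with miR-125b without replicate 1 of Normoxia miR-125b, −1.08 with Plus A (−0.93 with all libraries) without replicate 1 of Normoxia Plus A, and −0.86 with Trim AGU without replicate 2 of Hypoxia Trim AGU. The Trim AG value dropped under 1.5-fold without replicate 2 (−0.52) or 3 (−0.58) of Hypoxia Trim AG or replicate 2 of Normoxia Trim AG (−0.58). The Trim AGU call was lost without replicate 3 of Hypoxia Trim AGU (adjusted p = 0.0513) or replicate 2 (0.0597) or 3 (0.0506) of Normoxia Trim AGU.

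*Bmp4*, the BMP ligand of the group, fell in each of the 5 comparisons. It had 71.9, 79.3 and 73.1 CPM in Hypoxia miR-125b and 125, 132 and 128 CPM in Normoxia miR-125b, without overlap. The fall was 1.82-fold with miR-125b (log2 −0.86, SE 0.05, adjusted p = 3.70e-08), 1.92-fold with Plus A, 1.64-fold with Trim A, 1.94-fold with Trim AG and 1.69-fold with Trim AGU (log2 −0.76, adjusted p = 0.00675), or −0.84 without replicate 2 of Hypoxia Trim AGU. *Tgfb1* changed less. It had 126, 127 and 129 CPM in Hypoxia miR-125b and 171, 167 and 150 CPM in Normoxia miR-125b, a log2 fold change of −0.43 that passed the adjusted p but not the fold. It fell 1.54-fold with Plus A (log2 −0.62, SE 0.06, adjusted p = 4.56e-06), 1.71-fold with Trim A (−0.78, SE 0.14) and 1.70-fold with Trim AG (−0.76, SE 0.16, adjusted p = 0.00328), and the log2 fold change with Trim AGU was −0.38 (SE 0.19, adjusted p = 0.163), or −0.50 (adjusted p = 0.0232) without replicate 2 of Hypoxia Trim AGU. With Plus A the value was −0.51 when libraries were scaled by their totals alone, and with Trim AG it was −0.58 without replicate 2 of Hypoxia Trim AG, both under 1.5-fold.

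The receptor genes differed from the rest. *Tgfbr1* was called in 0 of the 5 comparisons of hypoxia with normoxia, with log2 fold changes of −0.20 (Trim AGU), 0.04 (Trim AG), 0.04 (Trim A), 0.19 (Plus A) and −0.11 (miR-125b). The 95% interval, from the SE by the normal distribution, was −0.24 to 0.02 with miR-125b and −0.68 to 0.28 with Trim AGU. *Tgfbr2* was called only with Trim A, where it had 30.2, 21.1 and 23.0 CPM in hypoxia and 32.3, 38.5 and 36.1 CPM in normoxia (log2 −0.60, SE 0.13, adjusted p = 0.00400). That value was −0.51 without replicate 2 and −0.56 without replicate 3 of Hypoxia Trim A, −0.55 without replicate 2 of Normoxia Trim A, and −0.53 with libraries scaled by their totals, and with all libraries in 1 fit the adjusted p was 0.0730. With Trim AGU the log2 fold change of *Tgfbr2* was −1.08 (SE 0.46, adjusted p = 0.112), and without replicate 2 of Hypoxia Trim AGU it was −0.68 (adjusted p = 0.00172). With Trim AG it was −0.47 (adjusted p = 0.00408), or −0.60 without replicate 1 of Hypoxia Trim AG.

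**Figure D2:**
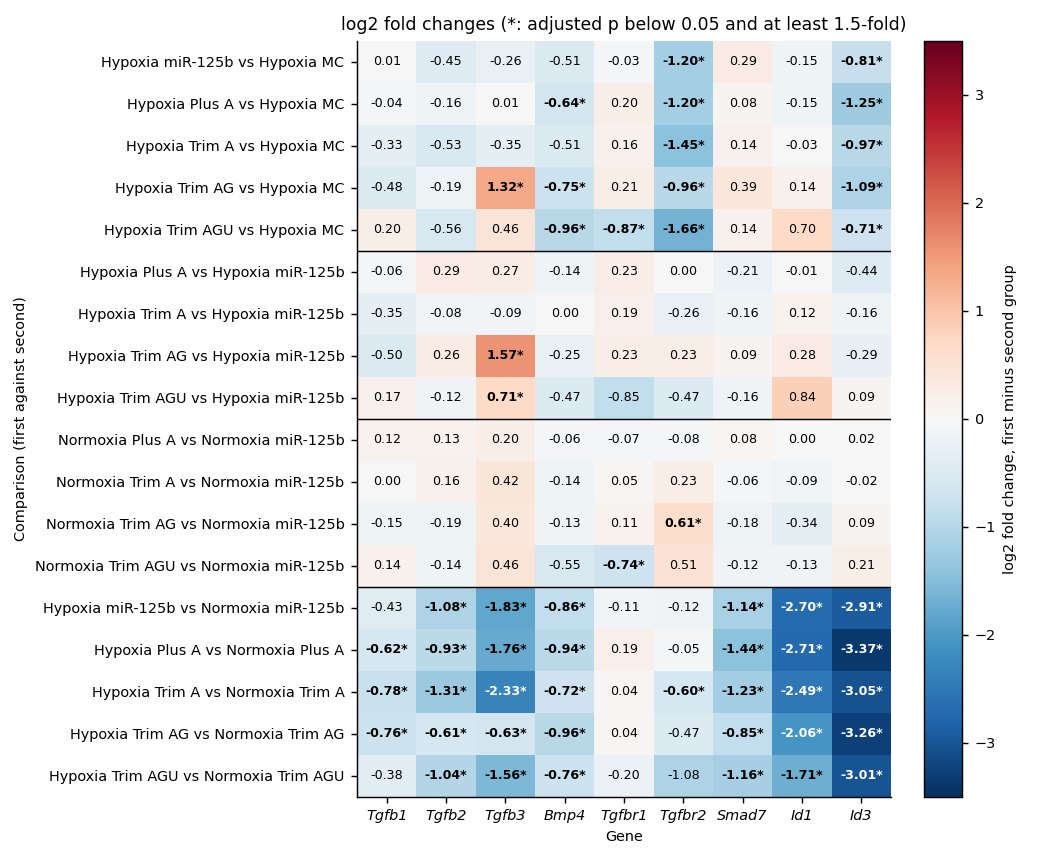
Log2 fold change (first minus second group) of the 9 genes in the 18 comparisons of a pair of groups, with a star on called values (adjusted p below 0.05 and at least 1.5-fold). The lower 5 rows, hypoxia against normoxia, hold the largest values, down to −3.37 for *Id3* with Plus A. *Tgfbr2* and *Id3* are called lower in all 5 rows against Hypoxia MC.

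The comparisons with MC asked what each mimic did to the pathway, and per-library counts allowed them in hypoxia only. The 5 comparisons share the 3 libraries of Hypoxia MC, so their values are not independent of each other. With miR-125b 2 of the 9 genes were called, beside 21.9% of all genes. With Plus A 3 were called (24.7% of all genes), with Trim AGU 4 (23.5%), with Trim AG 4 (37.1%) and with Trim A 2 (28.0%). *Tgfb3* with Trim AG was called higher, and the other calls were lower than MC, beside 12.5% of all genes called lower with miR-125b, 12.2% with Trim AGU, 20.1% with Trim AG, 15.7% with Trim A and 14.3% with Plus A. The share of all genes called higher with Trim AG was 16.9%. By the adjusted p alone 6 genes differed with miR-125b (60.4% of all genes), 5 with Trim AGU (29.5%), 7 with Trim AG (59.3%), 5 with Trim A (52.2%) and 4 with Plus A (57.0%). In the same order, libraries did not overlap with those of MC for 6 (65.1%), 7 (55.1%), 6 (66.8%), 5 (60.8%) and 4 (63.4%) genes.

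*Tgfbr2*, the type II receptor that binds the ligand, was called lower with each of the 5 mimics. It had 72.1, 63.6 and 73.1 CPM in Hypoxia MC, above each of the 30 other libraries, which had 6.28 to 49.6 CPM. It had 27.3, 31.0 and 30.5 CPM with miR-125b and 26.7, 30.1 and 32.8 CPM with Plus A. With Trim A it had 30.2, 21.1 and 23.0 CPM, and with Trim AG 40.5, 29.2 and 33.3 CPM. Every library of a miR-125b mimic or isomiR thus lay below every Hypoxia MC library. Normoxia MC is not among the libraries used, and the share of all genes with such a split was not computed. The fall was 2.29-fold with miR-125b (log2 −1.20, SE 0.06, adjusted p = 2.54e-13), 2.29-fold with Plus A (−1.20, SE 0.08), 2.73-fold with Trim A (−1.45, SE 0.13) and 1.94-fold with Trim AG (−0.96, SE 0.11, adjusted p = 7.45e-05).

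With Trim AGU the libraries of *Tgfbr2* were spread widely, at 31.1, 6.28 and 24.3 CPM. The fall was 3.15-fold (log2 −1.66, SE 0.47, adjusted p = 0.0397), and without replicate 2, the library with 6.28 CPM, the log2 fold change was −1.25 (adjusted p = 3.28e-05). The call was lost without replicate 1 (adjusted p = 0.108), 2 (0.0964) or 3 (0.114) of Hypoxia MC, without replicate 3 of Hypoxia Trim AGU (0.0979) and with no filter on low counts (0.0642). In normoxia the authors' means of *Tgfbr2*, which carry no library values and allow no test, were 2158 for MC and 855 for Plus A, a ratio of 0.396. For the other 8 genes the ratio of these means lay between 0.848 and 1.21.

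*Tgfbr1*, the type I receptor, was called lower with Trim AGU alone. It had 35.3, 32.9 and 35.2 CPM in Hypoxia MC and 22.4, 10.5 and 19.1 CPM in Hypoxia Trim AGU. The log2 fold change was −0.87 (SE 0.23, adjusted p = 0.0300), and −0.65 without replicate 2 of Hypoxia Trim AGU (adjusted p = 0.000496). The call was lost without replicate 1 (adjusted p = 0.101), 2 (0.0890) or 3 (0.103) of Hypoxia MC or replicate 3 of Hypoxia Trim AGU (0.0751). With the other mimics the log2 fold change against MC was between −0.03 and 0.21.

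*Id3* was lower in each of the 15 hypoxia libraries with a miR-125b mimic or isomiR than in the 3 with MC. It had 60.1, 59.9 and 56.0 CPM with MC and 20.7 to 33.2 CPM with the others, and the share of all genes with such a split was not computed. The log2 fold change was −0.81 with miR-125b (SE 0.05, adjusted p = 7.52e-12), −1.25 with Plus A (SE 0.09), −0.97 with Trim A (SE 0.09), −1.09 with Trim AG (SE 0.08) and −0.71 with Trim AGU (SE 0.10, adjusted p = 0.00382), or −0.75 without replicate 2 of Hypoxia Trim AGU. *Id1*, its close relative, was called in 0 of these 5 comparisons. It had 18.5, 18.0 and 15.4 CPM with MC and 15.2, 14.9 and 15.7 CPM with miR-125b (log2 −0.15, 95% interval −0.31 to 0.01). With Trim AGU *Id1* had a log2 fold change of 0.70 (SE 0.24, adjusted p = 0.0701), which DESeq2 called (0.72, adjusted p = 0.0381) and which was 0.39 without replicate 2 of Hypoxia Trim AGU.

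*Bmp4* had 117, 104 and 106 CPM with MC, above the 48.9 to 79.3 CPM of the 15 other hypoxia libraries. It fell 1.56-fold with Plus A (log2 −0.64, SE 0.07, adjusted p = 1.09e-06), 1.68-fold with Trim AG (−0.75, SE 0.09) and 1.95-fold with Trim AGU (−0.96, SE 0.11, adjusted p = 0.00238), or by −1.04 on the log2 scale without replicate 2 of Hypoxia Trim AGU. With miR-125b and Trim A the log2 fold changes were −0.51 and −0.51, past the adjusted p (1.89e-08 and 0.000687) and short of the fold. In Trim AGU the values were the lowest, at 48.9, 51.7 and 51.2 CPM. The share of all genes with MC apart from the 15 other hypoxia libraries was not computed.

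The TGF-β ligand genes moved by smaller amounts against MC, apart from *Tgfb3* with Trim AG. *Tgfb3* had 135, 147 and 146 CPM with MC and 353, 321 and 346 CPM with Trim AG, a rise of 2.49-fold (log2 1.32, SE 0.08, adjusted p = 1.23e-06). The 3 Trim AG libraries lay above the 15 other hypoxia libraries, which had 104 to 191 CPM, and the share of all genes with such a split was not computed. With miR-125b the log2 fold change of *Tgfb3* was −0.26 (adjusted p = 3.00e-06), with Plus A 0.01, with Trim A −0.35 and with Trim AGU 0.46 (adjusted p = 0.0154). *Tgfb2* had 418, 418 and 436 CPM with MC, and its log2 fold changes were −0.45 with miR-125b (adjusted p = 2.95e-11), −0.56 with Trim AGU, −0.19 with Trim AG, −0.53 with Trim A and −0.16 with Plus A, none of them called. Without replicate 1 of the mimic's own group it was called with Trim A (−0.72) and Trim AGU (−0.77), and without replicate 2 of Hypoxia Trim AGU the Trim AGU value was −0.38. *Tgfb1* had 121, 136 and 132 CPM with MC and 126, 127 and 129 CPM with miR-125b (log2 0.01, 95% interval −0.07 to 0.09). With Trim AG it had 113, 64.0 and 89.6 CPM (log2 −0.48, adjusted p = 0.0300), and it was called there without replicate 1 of Hypoxia Trim AG (−0.68). *Smad7* was called with none of the mimics, and for miR-125b against MC its value was 0.29 (SE 0.06, adjusted p = 0.000296).

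The comparisons of the isomiRs with miR-125b asked what a base added or removed at the 3′ end changed, at the same dose and in the same oxygen state. They number 8, 4 in hypoxia and 4 in normoxia, and those in the same state share the libraries of miR-125b. In hypoxia 0 of 9 genes were called with Plus A (2.13% of all genes), 1 with Trim AGU (3.68%), 1 with Trim AG (19.3%) and 0 with Trim A (1.02%). In normoxia 0 were called with Plus A (0.0% of all genes), 1 with Trim AGU (11.5%), 1 with Trim AG (13.9%) and 0 with Trim A (0.591%). By the adjusted p alone the hypoxia counts were 3 (18.4%), 1 (3.98%), 6 (41.7%) and 0 (2.57%) in the same order, and the normoxia counts 0 (0.0%), 4 (25.8%), 2 (39.2%) and 0 (3.51%).

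Plus A, with 1 base more, differed from miR-125b in hypoxia by less than 1.5-fold in each of the 9 genes. *Tgfb2* and *Tgfb3* were higher by 0.29 and 0.27 on the log2 scale (adjusted p = 0.000523 and 0.00144) and *Id3* lower (−0.44, SE 0.09, adjusted p = 0.00606). The unadjusted p was below 0.05 for 5 of the 9 genes and for 31.3% of all genes. The 95% interval of the difference was −0.16 to 0.16 for *Tgfbr2* and −0.16 to 0.15 for *Id1*. In normoxia the unadjusted p was below 0.05 for 0 of the 9 genes, and over all genes edgeR called 0 and had 365 below an unadjusted 0.05, while DESeq2 called 1. Without replicate 1 of Normoxia miR-125b and replicate 1 of Normoxia Plus A together, 1.30% of all genes were called, and *Tgfb3* (log2 0.51, SE 0.06, adjusted p = 0.000554), *Tgfb2* (0.37, adjusted p = 0.00102) and *Tgfb1* (0.22, adjusted p = 0.0356) passed the adjusted p, short of 1.5-fold. With all libraries the values were 0.20, 0.13 and 0.12. The 2 libraries left out were singled out by their values of *Tgfb2* and *Tgfb3*. The adjusted p of these 2 genes without them is therefore no independent test of a difference.

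Trim A, with 1 base less, passed the adjusted p against miR-125b for 0 of 9 genes in hypoxia and 0 in normoxia. The unadjusted p was below 0.05 for 1 gene in hypoxia (23.6% of all genes) and 2 in normoxia (18.8%). In hypoxia the 95% interval was −0.14 to 0.14 for *Bmp4*, −0.23 to 0.04 for *Tgfb3* and −0.33 to 0.01 for *Id3*. In normoxia *Tgfb3* had 500, 563 and 490 CPM with Trim A and 458, 340 and 370 CPM with miR-125b, which did not overlap (log2 0.42, SE 0.11, adjusted p = 0.102).

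Trim AG, with 2 bases less, had the largest difference from miR-125b among the 9 genes. In hypoxia *Tgfb3* had 353, 321 and 346 CPM with Trim AG and 116, 118 and 114 CPM with miR-125b, a rise of 2.96-fold (log2 1.57, SE 0.07, adjusted p = 5.97e-06). In normoxia the *Tgfb3* libraries had 469, 605 and 515 CPM with Trim AG and 458, 340 and 370 CPM with miR-125b (log2 0.40, 95% interval 0.11 to 0.69, adjusted p = 0.0855). *Tgfbr2* was the gene called in normoxia, with 45.8, 48.0 and 49.6 CPM against 29.5, 28.0 and 33.8 CPM (log2 0.61, SE 0.08, adjusted p = 5.67e-05). It fell short of 1.5-fold without replicate 2 of Normoxia miR-125b (0.55) or replicate 3 of Normoxia Trim AG (0.58), and had an adjusted p of 0.0947 with all libraries in 1 fit. In hypoxia *Tgfbr2* differed by 0.23 (95% interval 0.01 to 0.45). Of the 6 genes past the adjusted p in hypoxia, *Tgfb1* (−0.50), *Bmp4* (−0.25) and *Id3* (−0.29) were lower, and *Tgfbr1* (0.23) and *Id1* (0.28) higher along with *Tgfb3*. *Tgfb1* was called there without replicate 1 of Hypoxia Trim AG (−0.70). In normoxia *Id1* was lower (−0.34, SE 0.09, adjusted p = 0.0158), short of 1.5-fold.

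With Trim AGU, with 3 bases less, *Tgfbr1* was the gene called in normoxia. It had 19.2, 23.2 and 18.1 CPM with Trim AGU and 32.3, 34.9 and 33.2 CPM with miR-125b, a fall of 1.67-fold (log2 −0.74, SE 0.11, adjusted p = 0.000626). In hypoxia it had 22.4, 10.5 and 19.1 CPM against 31.5, 32.7 and 34.4 CPM, and a log2 fold change of −0.85 (SE 0.23, adjusted p = 0.0908). That value was −0.63 without replicate 2 of Hypoxia Trim AGU (adjusted p = 0.00275) and −1.04 without replicate 1 (0.0447), and both were calls, as was the value of DESeq2 (−0.83, adjusted p = 0.0124). Replicate 2 was singled out in part by its *Tgfbr1* value, so the fit without it is no independent test. Over the 11 groups used, the 6 Trim AGU libraries had 10.5 to 23.2 CPM and the 27 others 30.4 to 43.0 CPM, without overlap. The share of all genes with such a split was not computed. Normoxia MC is not among these groups. The authors' means of *Tgfbr1* in normoxia, which allow no test, were 779 for MC and 945 for Plus A.

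In hypoxia *Tgfb3* was the gene called with Trim AGU, at 191, 170 and 172 CPM beside 116, 118 and 114 CPM with miR-125b (log2 0.71, SE 0.09, adjusted p = 0.0133), or 0.68 without replicate 2 of Hypoxia Trim AGU. The call was lost without replicate 1 (adjusted p = 0.138), 2 (0.131) or 3 (0.150) of Hypoxia miR-125b or replicate 3 of Hypoxia Trim AGU (0.0567). In normoxia the log2 fold change of *Tgfb3* was 0.46 (SE 0.11, adjusted p = 0.00897), that of *Bmp4* −0.55 (SE 0.08, adjusted p = 0.000688) and that of *Tgfbr2* 0.51 (SE 0.11, adjusted p = 0.00504), all short of 1.5-fold. *Tgfb3* passed the fold without replicate 1 of Normoxia miR-125b (0.59), and *Tgfbr2* without replicate 3 of Normoxia miR-125b (0.59) or replicate 1 of Normoxia Trim AGU (0.60). *Id1* in hypoxia had 22.6, 32.7 and 20.3 CPM against 15.2, 14.9 and 15.7 CPM, without overlap (log2 0.84, SE 0.23, adjusted p = 0.102). DESeq2 called it (0.86, adjusted p = 0.0197), and without replicate 2 of Hypoxia Trim AGU it was 0.52 (adjusted p = 0.00671).

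**Figure D3:**
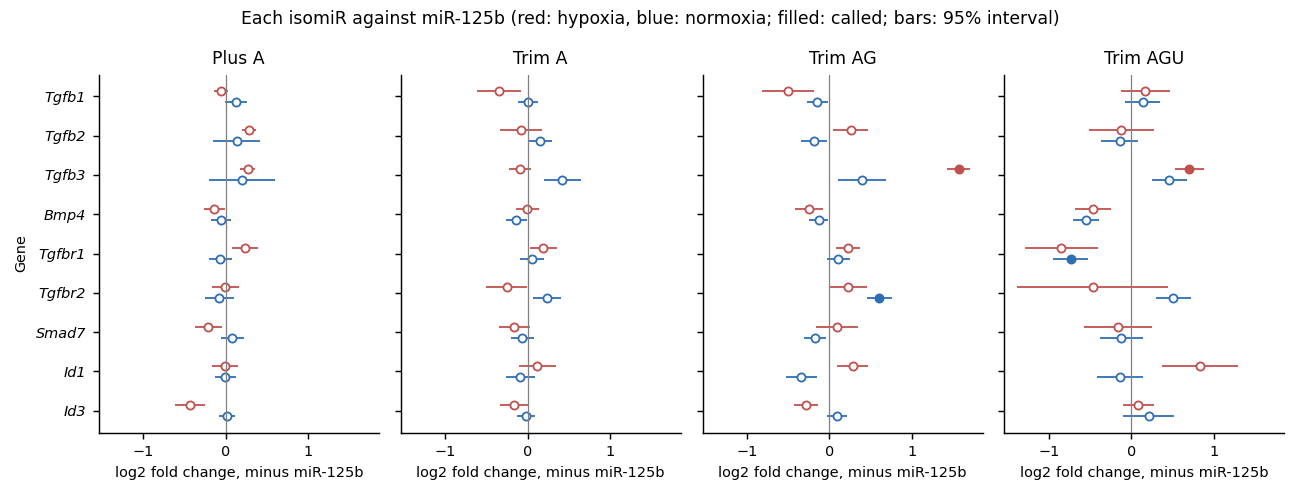
Log2 fold change of each isomiR against miR-125b for the 9 genes, in hypoxia (red) and normoxia (blue), with bars of the 95% interval and called values filled. The filled points are *Tgfb3* with Trim AG (1.57) and Trim AGU (0.71) in hypoxia, and *Tgfbr2* with Trim AG (0.61) and *Tgfbr1* with Trim AGU (−0.74) in normoxia.

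Whether an isomiR and miR-125b responded differently to hypoxia, with its change of medium, was tested by the interaction. It is the log2 fold change of hypoxia against normoxia with the isomiR minus that with miR-125b. With Plus A 0 of 9 genes were called (0.0385% of all genes), with Trim AGU 0 (1.02%), with Trim AG 2 (11.4%) and with Trim A 0 (1.15%). Unadjusted p-values below 0.05 were had by 4 genes with Plus A (15.6% of all genes), 3 with Trim A (22.6%) and 1 with Trim AGU (22.0%). Without replicate 1 of Normoxia miR-125b and of Normoxia Plus A, 0 of 9 were called with Plus A as well, beside 0.177% of all genes. With Trim AG the interaction of *Tgfb3* was 1.16 (SE 0.15, adjusted p = 9.56e-05), a smaller fall in hypoxia than with miR-125b, and 1.02 without replicate 1 of Normoxia miR-125b. That of *Id1* was 0.61 (SE 0.14, adjusted p = 0.00555), and it fell short of 1.5-fold without replicate 1 (0.58) or 2 (0.57) of Hypoxia Trim AG, replicate 2 of Normoxia miR-125b (0.56) or replicate 2 of Normoxia Trim AG (0.52). *Tgfb2* (0.43, adjusted p = 0.0384, or 0.33 and 0.0994 without replicate 1 of Normoxia miR-125b) and *Id3* (−0.39, adjusted p = 0.0121) passed the adjusted p and not the fold, which makes 4 of 9 by the adjusted p beside 23.4% of all genes. With Trim AGU, *Tgfbr2* had −0.96 (SE 0.51, adjusted p = 0.291), and −0.59 without replicate 2 of Hypoxia Trim AGU (adjusted p = 0.0435), which was a call. That library was singled out in part by its *Tgfbr2* value, so this call is no independent test. *Id1* had 1.01 (SE 0.30, adjusted p = 0.115) with Trim AGU, and was called by DESeq2 (adjusted p = 0.0374) and without replicate 1 of Hypoxia Trim AGU (1.13, adjusted p = 0.0316). Without replicate 2 it was 0.65 and was not called (adjusted p = 0.05002). With Trim A, *Tgfbr2* (−0.48, adjusted p = 0.105) was called without replicate 1 of Hypoxia Trim A (−0.63), and *Tgfb3* (−0.50, adjusted p = 0.0632) without replicate 1 of Normoxia miR-125b (−0.65).

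Compared per length, in FPKM, the ligand and *Id* genes stood above the receptor genes and *Smad7* by their medians in both oxygen states. In normoxia the medians over the 5 groups were 237 FPKM for *Id3*, 201 for *Tgfb3*, 142 for *Tgfb2*, 94.1 for *Id1*, 77.7 for *Tgfb1*, 55.8 for *Bmp4*, 16.1 for *Smad7*, 13.1 for *Tgfbr2* and 5.81 for *Tgfbr1*. The group means of neighbours in that order overlapped for *Tgfb3* (151 to 210) and *Tgfb2* (126 to 159), *Id1* (79.5 to 99.9) and *Tgfb1* (70.4 to 85.9), and *Smad7* (15.0 to 17.7) and *Tgfbr2* (10.6 to 17.1). In hypoxia the medians over 6 groups were 74.1 FPKM for *Tgfb2*, 55.9 for *Tgfb1*, 51.2 for *Tgfb3*, 31.8 for *Bmp4*, 29.6 for *Id3*, 16.9 for *Id1*, 10.2 for *Tgfbr2*, 6.87 for *Smad7* and 5.85 for *Tgfbr1*. In hypoxia the group means of every pair of neighbours overlapped. *Id3* stood at the top of the order in normoxia and below the 4 ligand genes in hypoxia.

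**Figure D4:**
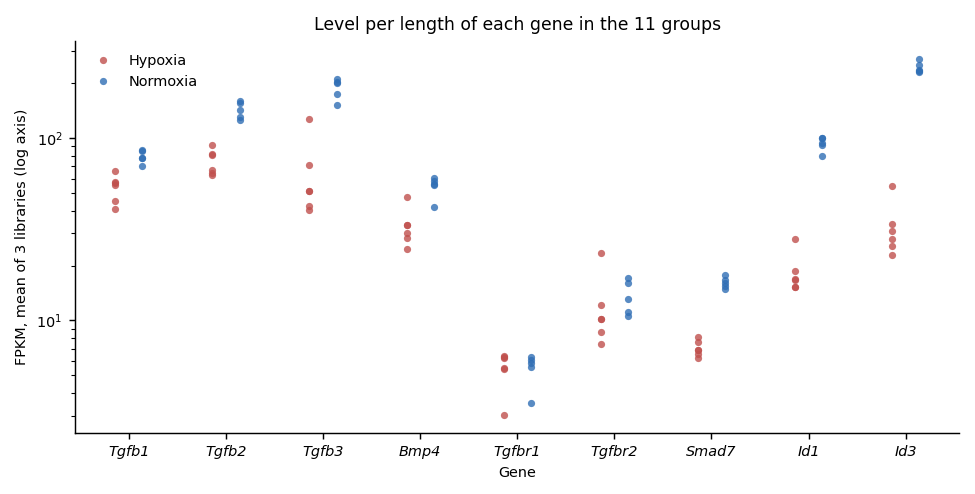
Level per length of the 9 genes, as the mean FPKM of 3 libraries in each of 6 hypoxia groups (red) and 5 normoxia groups (blue), on a log axis. Medians run from 5.81 FPKM for *Tgfbr1* to 237 FPKM for *Id3* in normoxia, and *Id1*, *Id3*, *Smad7*, *Tgfb1*, *Tgfb2* and *Tgfb3* have no hypoxia mean above a normoxia mean.

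Other genes of the pathway were followed in a list of 74, of which 73 were in the tables and 58 to 60 were tested in a comparison. In hypoxia against normoxia, 19 of 60 were called lower and 3 higher with miR-125b, 21 and 4 with Plus A, 23 and 2 with Trim A, 20 and 2 with Trim AG, and 21 and 3 of 59 with Trim AGU. Of all genes, 11.4% were called lower and 9.28% higher with miR-125b, 12.6% and 9.97% with Plus A, 14.5% and 12.0% with Trim A, 17.7% and 15.0% with Trim AG, and 13.3% and 13.5% with Trim AGU. BMP target genes made up 4, 5, 6, 4 and 6 of these falls, of 6 tested each time. *Id2*, the relative of *Id1* and *Id3*, had 9.11 ± 1.30 CPM in Hypoxia miR-125b and 73.5 ± 8.11 CPM in Normoxia miR-125b (mean ± SD, n = 3, log2 −3.09, adjusted p = 1.20e-08). *Atoh8*, a BMP-induced transcription factor gene, had 10.9 ± 0.962 and 45.6 ± 1.53 CPM (log2 −2.15). In the other direction stood *Dcn*, encoding decorin, a matrix proteoglycan that binds TGF-β (12.6 ± 0.806 against 1.56 ± 0.419 CPM, log2 2.94), *Chrd*, encoding the BMP antagonist chordin (log2 0.89), and *Bambi*, encoding a decoy receptor (log2 0.60). The median log2 fold change of the tested list was −0.26 with miR-125b and −0.54 with Trim AGU.

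Against MC in hypoxia, 12 of 60 other pathway genes were called lower and 6 higher with miR-125b, 12 and 8 with Plus A, 15 and 5 with Trim A, 22 and 7 with Trim AG, and 18 and 4 with Trim AGU. The shares of all genes called lower and higher were 12.5% and 9.36% with miR-125b, 14.3% and 10.4% with Plus A, 15.7% and 12.3% with Trim A, 20.1% and 16.9% with Trim AG, and 12.2% and 11.3% with Trim AGU. The 6 of 60 higher with miR-125b were thus near the share of all genes. *Postn*, encoding periostin, a matrix protein that TGF-β induces, had 3062 ± 63.2 CPM with MC and 727 ± 13.5 CPM with miR-125b (log2 −2.04, adjusted p = 7.76e-23). *Dcn* (log2 −1.70) was also among the largest falls with miR-125b. *Tgfbr3*, encoding betaglycan, a co-receptor that presents TGF-β2, rose from 27.4 ± 1.42 to 49.7 ± 3.02 CPM (log2 0.90, adjusted p = 1.26e-11). *Acta2*, encoding smooth muscle actin (log2 0.89), and *Col1a1*, encoding a collagen chain (0.76), rose as well, so the TGF-β target genes of the list moved in both directions, 3 higher and 4 lower of 12 tested.

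With Trim AG against miR-125b in hypoxia, 14 of 60 other pathway genes were called lower and 7 higher, beside 11.4% and 7.87% of all genes. *Inhba*, encoding the activin subunit βA, rose from 25.6 ± 2.34 to 51.1 ± 5.74 CPM (log2 1.02, adjusted p = 0.000126) and *Tagln* rose 2.10-fold (log2 1.07). *Col3a1* (log2 −1.88) and *Col1a1* (−1.59) and the latent TGF-β binding protein gene *Ltbp3* (−1.57, adjusted p = 0.00295) fell. With Trim AGU 5 of 58 were lower and 1 higher, beside 1.89% and 1.79% of all genes, and without replicate 2 of Hypoxia Trim AGU 10 were lower and 3 higher, beside 8.62% of all genes called in either direction. *Bambi* was the gene called higher (37.0 ± 2.49 against 19.1 ± 0.641 CPM, log2 1.05, adjusted p = 0.0119), a call lost in part of the fits that left out a library (adjusted p up to 0.114). Plus A and Trim A had 2 calls each, all lower, beside 1.39% and 0.523% of all genes, *Inhba* and *Dcn* with Plus A and *Dcn* and *Chrd* with Trim A. Both Trim A calls were lost in part of the fits that left out a library (adjusted p up to 0.162 and 0.189). In normoxia the calls were 0 with Plus A, 0 with Trim A, 10 of 60 with Trim AG (16.7%, beside 13.9% of all genes) and 8 of 60 with Trim AGU (13.3%, beside 11.5%), shares near those of all genes.

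**Figure D5:**
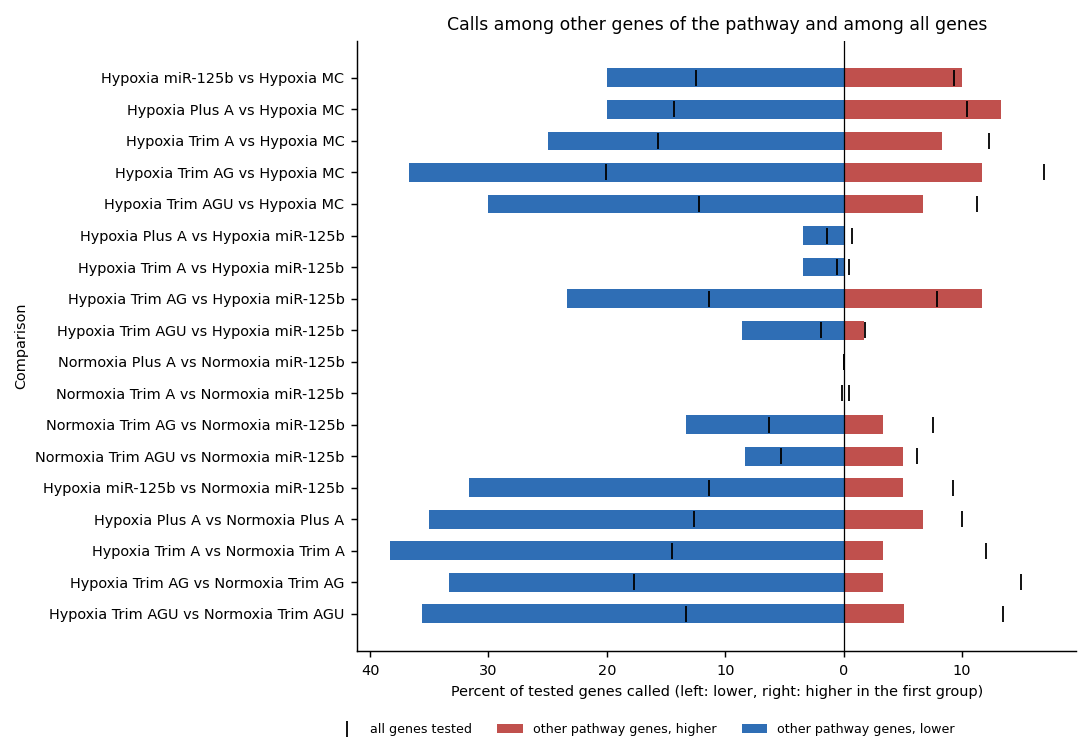
Percent of the other pathway genes called lower (blue, left) and higher (red, right) in the first group of each of 18 comparisons, with black ticks at the percent of all genes tested that was called in that direction. In the 5 comparisons of hypoxia with normoxia the blue bars stand for 19 to 23 genes and reach past the tick, and the red bars stand for 2 to 4 genes and stop short of it.

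Over the 11 group means of log2 CPM, the genes most like each of the 9 among 10920 searched had Pearson correlations of 0.957 to 0.992. These are descriptions over 6 hypoxia and 5 normoxia groups, which differ in oxygen state, medium and depth. The part of these in the correlations was not tested. *Smad7* was most like *Slc16a7* (0.988) and *Id2* (0.987), *Id1* like *Timp1* (0.986) and *Id2* (0.985), and *Id3* like *Hpcal1* (0.992) and *Dapk2* (0.990). *Tgfbr2* was most like *Ldlrad4* (0.978) and *Ccdc64b* (0.977), and *Tgfbr1* like *Pigq* (0.969) and *Lrrc41* (0.957). *Tgfb3* was most like *Cyr61* (0.975) and *Grm8* (0.972), *Tgfb2* like *Pkp2* (0.973) and *Ptprb* (0.969), *Tgfb1* like *Galns* (0.961) and *Ulk4* (0.959), and *Bmp4* like *Ptprq* (0.976) and *Apbb1* (0.962). Among the 9 genes themselves, *Id1* and *Id3* had 0.966 and *Smad7* had 0.964 with *Id1* and 0.945 with *Id3*, whereas *Tgfbr1* had −0.17 with *Id1* and −0.35 with *Tgfb1*.

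In the authors' tables, whose genome build is not given in the sources used here, *Tgfb1* lies at chr1:82480195-82497199, *Tgfb2* at chr13:105039853-105141030, *Tgfb3* at chr6:109913757-109935533 and *Bmp4* at chr15:20776054-20822740. *Tgfbr1* lies at chr5:63050758-63119635, *Tgfbr2* at chr8:124312754-124399494, *Smad7* at chr18:71395830-71424157, *Id1* at chr3:148215540-148216718 and *Id3* at chr5:154489590-154491223. All 9 are listed as protein-coding.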

How the data were processed

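RNA of H9C2 cells was measured in non-stranded poly-A libraries, so reads of overlapping and antisense genes cannot be told apart. Of 12 tables the authors deposited, each for a pair of groups, 11 give raw counts and FPKM per library. The submitters' processing notes name HISAT2 and StringTie. Versions, the counting tool and the build are not given in the sources used here. The authors' FPKM use a library scale other than the count total (0.856 to 1.07 times it). In the table of Normoxia Plus A and Normoxia MC the authors deposited group means, an expression signal on that table's own scale, so Normoxia MC entered no test. The authors' fold changes and p-values were not used.

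Tables were joined with Python 3.11.15 and pandas 2.3.3, with a gene left out of a table given 0 (it had at most 1 count elsewhere). CPM are counts over the library total, on a common scale. Each of 18 pairs was fitted on its own libraries with edgeR 4.0.16 in R 4.3.3 (TMM, filterByExpr, quasi-likelihood test), and 4 interactions on 12 libraries each, with p-values adjusted by Benjamini-Hochberg over all genes tested. SEs were taken as the log2 fold change divided by √F of the quasi-likelihood test. Of these steps, the edgeR test was run on simulated counts for 2 of the comparisons. The simulation held no library that stood apart from its group, and its outcome is not given here. Replicates differed beyond sampling noise (chi-square per gene 4.75 to 219). The alternatives were DESeq2 1.42.0, RLE factors, no TMM, no filter, all libraries in 1 fit, the replicate block, each library left out, no fold threshold and FPKM for likeness. The 9 genes, the lists and the tests were chosen with earlier results of these data known. The 9 genes are named throughout. Of the other pathway genes, up to 3 called genes per direction and comparison were named, by log2 fold change (mean CPM 1 or more), and per gene the 2 most like it by Pearson correlation of log2 CPM (prior count 2), under the same minimum. A gene that this rule named is not reported here. Mimic sequences come from RefSeq (GRCr8). Target sites in 3′ ends of messengers and protein sequences were not analysed here.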

Additional observations from a re-analysis of the deposited data

Results flagged for a closer look

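The response to hypoxia, with its change of medium, differed between Trim AG and miR-125b in 4 of the 9 genes, beside 23.4% of all genes. The interaction was tested by edgeR's quasi-likelihood test, Benjamini-Hochberg adjusted over all genes. *Tgfb3* and *Id1* also passed 1.5-fold, and *Tgfb2* and *Id3* did not. It was 1.16 on the log2 scale for *Tgfb3* (adjusted p = 9.56e-05), 0.61 for *Id1* (adjusted p = 0.00555), 0.43 for *Tgfb2* (adjusted p = 0.0384) and −0.39 for *Id3* (adjusted p = 0.0121). *Tgfb3*, *Id1* and *Tgfb2* fell less in hypoxia with Trim AG than with miR-125b, and *Id3* fell more. When each library was left out in turn the values ranged from 1.02 to 1.27 for *Tgfb3*, 0.52 to 0.72 for *Id1*, 0.31 to 0.52 for *Tgfb2* and −0.42 to −0.31 for *Id3*, and the adjusted p rose above 0.05 for *Tgfb2* in some of these fits (up to 0.0994).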

How the results depend on the processing

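Of 198 values of the 9 genes over the comparisons, the 92 that passed the adjusted p or were called in some setting were followed over 1152 alternative values. Direction and call were kept in 1089, 38 lost and 25 gained the call, and 0 changed direction. Of the other 106, 35 changed sign in some setting. By the adjusted p alone the genes passing rose to 6 from 2 with miR-125b, 5 from 2 with Trim A and 7 from 4 with Trim AG against MC. Against Hypoxia miR-125b they rose to 3 from 0 with Plus A and 6 from 1 with Trim AG. Against Normoxia miR-125b they rose to 2 from 1 with Trim AG and 4 from 1 with Trim AGU, and in the Trim AG interaction to 4 from 2. DESeq2 called 3 genes, not 1, for Hypoxia Trim AGU against miR-125b, beside 1249 of 21714 genes tested. In the Trim AGU interaction it called 1, not 0, beside 745 of 22819. For Hypoxia Trim AGU against MC it called 5, not 4, beside 4276 of 21555. With all libraries in 1 fit these were 3, 1 and 5. That fit had 0, not 1, for Normoxia Trim AG against miR-125b and 1, not 2, in the Trim AG interaction. Scaling by totals alone also left 1 in that interaction. With no filter on low counts, Hypoxia Trim AGU against MC had 3, not 4. The causes were not tested.

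With each library left out in turn, the genes called in hypoxia against normoxia ranged from 7 to 8 with Trim A, 5 to 8 with Trim AG and 4 to 7 with Trim AGU. Against MC in hypoxia the range was 2 to 3 with Trim A, 4 to 5 with Trim AG and 2 to 5 with Trim AGU. Against miR-125b it was 1 to 2 for Hypoxia Trim AG and 0 to 2 for Hypoxia Trim AGU. The range was 0 to 1 for Normoxia Trim AG and 1 to 2 for Normoxia Trim AGU against miR-125b. In the interactions it was 0 to 1 with Trim A, 1 to 2 with Trim AG and 0 to 1 with Trim AGU. Such fits with 2 libraries in a group assume that they vary like the others.

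Same-numbered libraries did not deviate together (correlations of −0.262 to 0.146, with 0 of 18 pairs of groups over 0.1 in every number), so they share only a number. The replicate block left 0 genes called, not 1, for Hypoxia Trim AGU against miR-125b (*Tgfb3* 0.70, adjusted p = 0.103) and changed no other call of the 9 genes.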

Other observations

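In RefSeq promoters (250 bases before to 50 after the start, GRCr8), the letters GGCGCC, searched because SMADs of the BMP branch are known to bind such runs, occur 2 times in that of *Smad7* and 1 time in that of *Tgfbr1*, and not in those of the other 7 genes. They occur in 11.8% of 27457 promoters. The letters CAGACA, searched on both strands, occur 1 time in the promoter of *Bmp4* and in 20.8% of all, and GTCTAGAC occurs in none of the 9 and in 0.215% of all. These are matches of letters within this window and say nothing of binding.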
